A study of Mus musculus with 16 samples.

Results

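Guanylate-binding proteins (GBPs) and immunity-related GTPases (IRGs) are interferon-inducible GTPases that defend a cell from within. The 10 genes described are *Gbp2*, *Gbp3*, *Gbp4*, *Gbp5*, *Gbp6*, *Gbp7*, *Gbp9*, *Irgm1*, *Irgm2* and *Igtp*. They were taken by mouse gene symbol from a count table of 55414 genes, and all 10 were found. GBPs are large, dynamin-like GTPases that assemble on the membranes of microbes and of the vacuoles that hold them, and several carry a prenyl lipid anchor. IRGs are smaller, and the IRGM proteins encoded by *Irgm1*, *Irgm2* and *Igtp* sit on the membranes of the cell itself, where they hold other IRGs inactive. Transcription of both families is classically driven by interferon-γ through factors such as IRF1, and TNFα, a cytokine of inflamed joints that signals through NF-κB, also induces *Irf1* in many cell types.

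RNA was sequenced from 16 libraries of chondrocyte-enriched cells of newborn C57BL/6 mice, 4 in each of 4 groups. The cells came from the epiphyses of long bones at 3 to 4 days of age, with males and females pooled. *Notch2* mutant cells were heterozygous for *Notch2* tm1.1Ecan, a global allele with a premature stop codon, whose product lacks the PEST domain and gains function. Control cells were from wild type littermates, and homozygous mutants were not available because they do not survive. Each genotype was exposed for 6 h to TNFα (50 ng/ml) or to vehicle, phosphate-buffered saline. The sample labels mention the removal of serum for the TNFα groups only, whereas the methods of the study mention it for vehicle as well. If the labels are complete, a TNFα effect and an effect of serum cannot be told apart. The replicates are labelled as biological, without a statement of which animals or cultures they came from, so that p values measure the spread between these libraries.

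Counts on genes totalled 3439726 in *Notch2* mutant TNFα replicate 4 and 44237300 in *Notch2* mutant vehicle replicate 4, the extremes, with a median of 17062419. Control vehicle libraries held 13471143 to 18677402 counts and control TNFα libraries 12552727 to 19220459. No pair of libraries within a group matched within counting error, the lowest chi-square per degree of freedom being 2.14 over 24 pairs. Levels are read counts scaled to the normalised size of each library (CPM). A gene is called higher or lower where its p value in edgeR's quasi-likelihood test, adjusted by the Benjamini-Hochberg method over all genes tested, is under 0.05. Errors of log2 fold changes are standard errors.

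The allele differs from wild type by a base change, so that counts over the whole of *Notch2* do not check the genotype. *Notch2* was at 129, 135, 104 and 151 CPM in the control vehicle libraries and at 136, 162, 145 and 164 CPM in the mutant vehicle libraries. With TNFα it was at 188, 137, 129 and 169 CPM in control and at 209.5, 211, 241 and 229.8 CPM in mutant libraries. All 4 mutant libraries lay above all 4 control libraries with TNFα, and the groups overlapped with vehicle. *Notch2* differed between genotypes by 0.53 ± 0.12 on the log2 scale with TNFα (adjusted p 0.0178) and by 0.23 ± 0.11 with vehicle (adjusted p 0.283). With vehicle it was called with the replicate number as a block (0.24, adjusted p 0.00923) and with a minimum of 1 count (0.23, adjusted p 0.0043), the range over all alternatives being 0.0043 to 0.488. The call with TNFα was lost without *Notch2* mutant TNFα replicate 3 (0.48, adjusted p 0.0567) or replicate 4 (0.50, adjusted p 0.108), and over all alternatives the adjusted p ran from 3.07e-13 to 0.108.

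The identity of the cells was checked against marker lists. The 10 chondrocyte markers, with *Col2a1* the most abundant, summed to 53212, 51455, 51319.9 and 49372 CPM in control vehicle libraries and to 35782, 31447, 30893 and 33019 CPM in mutant vehicle libraries. With TNFα they summed to 36319, 36493, 35465 and 42167 CPM in control and to 21919.8, 21085, 21715 and 19399.6 CPM in mutant libraries. The cells therefore carried the transcripts of cartilage, at a lower level in every mutant library than in every control library of the same treatment. Fibroblast markers, led by *Col1a1*, summed to 34229, 32962, 31274 and 32209 CPM in control vehicle, 38228, 37343, 35482 and 37111 CPM in mutant vehicle, 33028, 31008, 30558 and 33584 CPM in control TNFα and 39730.3, 39987, 41787 and 33944 CPM in mutant TNFα libraries. Chondrocyte and fibroblast collagens were thus both abundant in these enriched cultures. In bulk cells, fewer cells of a type and less RNA per cell cannot be told apart.

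Cells of the immune system, which are strong producers of GBPs and IRGs, were looked for by their markers. The 12 macrophage markers, led by *Lyz2*, summed to 70.9, 74.0, 74.2 and 68.6 CPM in control vehicle and to 143, 141, 142 and 125 CPM in mutant vehicle libraries. With TNFα these markers summed to 97.6, 87.5, 83.1 and 88.6 CPM in control and to 191, 183, 169 and 167 CPM in mutant libraries. Macrophage markers were thus higher in every mutant library than in any control library. T and NK cell markers, of which *Cd4* was the most abundant, summed to 0.111, 0, 0.129 and 0.119 CPM in control vehicle, 0.413, 0.308, 0.0519 and 0.161 CPM in mutant vehicle, 0.0788, 0, 0.0583 and 0.209 CPM in control TNFα and 0.265, 0.643, 0.175 and 0.276 CPM in mutant TNFα libraries. *Cd3e*, *Cd3g*, *Cd8a* and *Ncr1*, which define these lymphocytes, had 0 counts in all 16 libraries.

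Endothelial and skeletal muscle markers were scarcer still than those of macrophages. Endothelial markers, led by *Tek*, summed to 6.52, 8.07, 7.85 and 8.75 CPM in control vehicle, 15.2, 17.0, 17.7 and 19.4 CPM in mutant vehicle, 9.77, 9.66, 12.0 and 9.04 CPM in control TNFα and 22.2, 19.4, 17.2 and 21.5 CPM in mutant TNFα libraries. Skeletal muscle markers, led by *Acta1*, summed to 23.9, 20.3, 24.8 and 23.9 CPM, 37.3, 32.2, 35.0 and 39 CPM, 10.0, 13.1, 7.0 and 15.5 CPM and 21.0, 16.2, 19.2 and 33.4 CPM in the same order of groups. The part of these other cell types in the GBP and IRG results was not tested.

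Control vehicle replicate 4 stood apart from the other vehicle libraries, and results of the 10 genes that rest on it are given with and without it. For 10 of 10 GBP and IRG genes it lay above the other 7 vehicle libraries and below all 8 TNFα libraries. Its levels were 15.3% of the control TNFα mean for *Gbp6* and 30.04% for *Irgm1*, the extremes. *Irgm1* was 4.10 times, *Gbp2* 29.5 times and *Gbp9* 75.8 times as high in it as in the mean of the other 3 control vehicle libraries. The same position was held by 8 of 8 genes of the TNF and NF-κB response, at 15.4 to 27.8% of their control TNFα means. Most chondrocyte markers fell with TNFα, so that a position above the other vehicle libraries could not show the same shift in them. Of these markers 1 of 10 lay above the other 7 vehicle libraries, and their ratios to the other 3 control vehicle libraries were 0.834 to 1.10. Control TNFα replicate 4 was in turn the lowest of its group for 10 of 10 GBP and IRG genes and for 7 of 8 TNF and NF-κB genes. How many of all genes held these positions was not counted, so that these counts are a description.

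**Figure D1:**
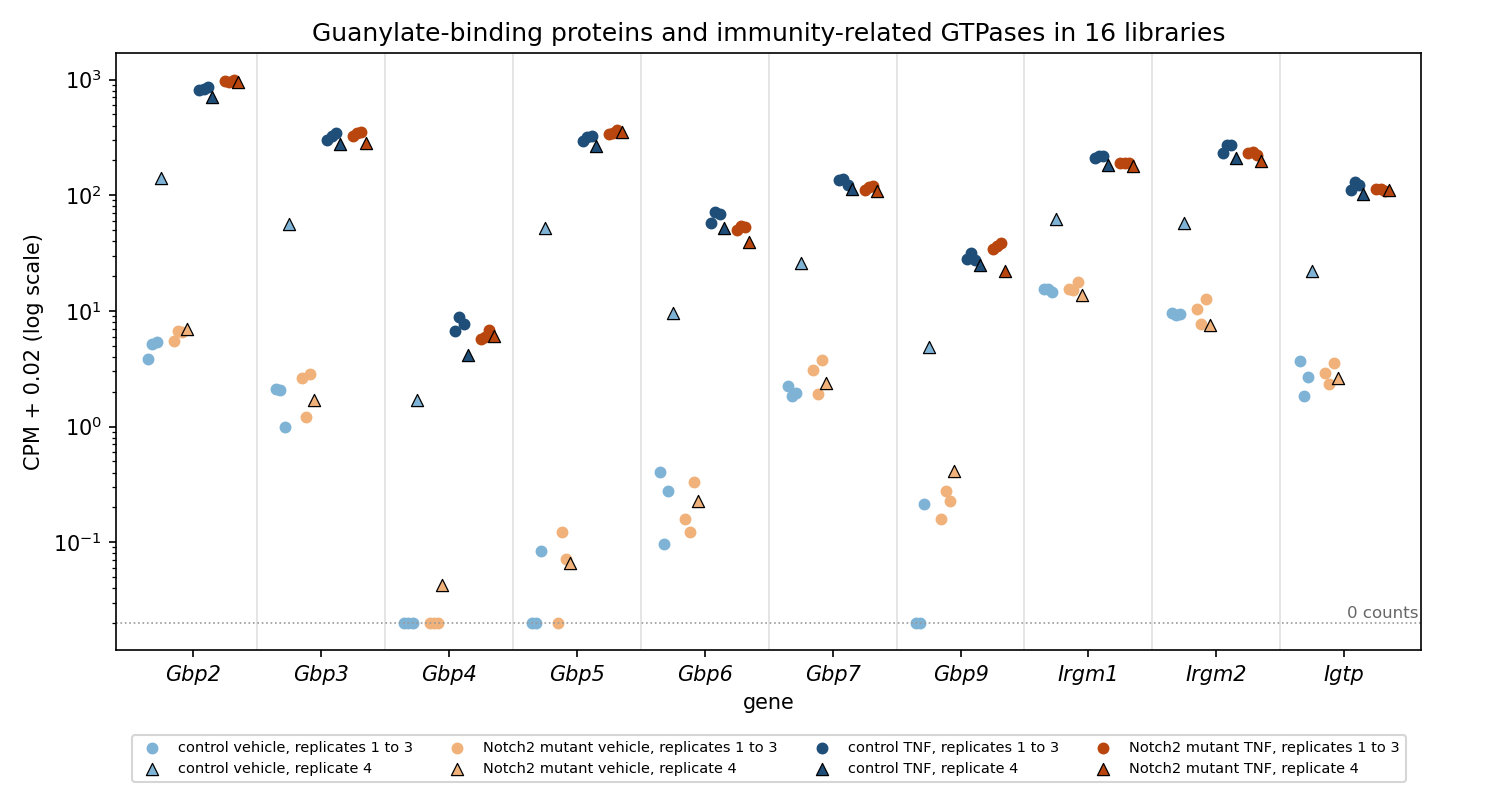
Level of each of the 10 GBP and IRG genes in each of the 16 libraries, as CPM plus 0.02 on a log axis, with circles for replicates 1 to 3, triangles for replicate 4 and a dotted line for 0 counts. For every gene the triangle of control vehicle replicate 4 lies between the other vehicle libraries and the TNFα libraries, and the TNFα libraries of both genotypes lie highest.

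The 10 genes lie in clusters (GENCODE M39, GRCm39). *Gbp5* (ENSMUSG00000105504, chr3:142199739-142228105), *Gbp7* (ENSMUSG00000040253, chr3:142236044-142255910), *Gbp3* (ENSMUSG00000028268, chr3:142265731-142278979) and *Gbp2* (ENSMUSG00000028270, chr3:142326349-142343779) follow each other on the plus strand of chromosome 3. *Gbp9* (ENSMUSG00000029298, chr5:105224332-105287452), *Gbp4* (ENSMUSG00000079363, chr5:105263633-105287609) and *Gbp6* (ENSMUSG00000104713, chr5:105418568-105443751) lie on the minus strand of chromosome 5. *Irgm1* (ENSMUSG00000046879, chr11:48752795-48763164) is on the minus strand of chromosome 11, apart from *Igtp* (ENSMUSG00000078853, chr11:58089840-58098417) and *Irgm2* (ENSMUSG00000069874, chr11:58090444-58113615), which overlap on its plus strand. All 10 are annotated as protein coding.

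Near-identical sequence limits how firmly some of these genes can be counted. Of the 75-base windows in the transcripts of *Gbp6*, 57.2% also occur in transcripts of another gene, most of them (50.7% of its windows) in *Gm43302*, and 25.4% of its exon bases overlap that gene on the same strand, so that counts of *Gbp6* are uncertain. *Gbp7* shares 9.97% of its windows, mainly with *Gm43802*, and 10.6% of its exon bases overlap it. *Irgm2* shares 5.83% and *Igtp* 4.37%, largely with each other, and their exons overlap over 162 bases. *Gbp4* shares 2.82%, *Gbp9* 2.21%, *Gbp3* 1.42%, *Gbp5* 1.06%, *Gbp2* 0.803% and *Irgm1* 0% of their windows. Whether the authors' counting used strand is not given in the sources used here.

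TNFα raised the GBP and IRG transcripts in the chondrocyte-enriched cells of both genotypes. In *Notch2* mutant cells 10 of 10 genes were higher with TNFα, where 22.6% of all genes tested were. In control cells 9 of 10 were higher with all 8 libraries, where 23.3% of all genes tested were, and 10 of 10 without control vehicle replicate 4, where 23.5% were. These counts are a description, since *Gbp4* and *Gbp5* in mutant cells, and *Gbp4*, *Gbp5* and *Gbp9* in control cells without that library, passed the count minimum of 10 through their TNFα libraries. With the replicate number as a block 4 of 10 were called in control cells, the calls of *Gbp2*, *Gbp3*, *Gbp4*, *Gbp6* and *Gbp9* being lost (adjusted p 0.0526 to 0.106). Over all alternatives the adjusted p ran from 5.63e-22 to 0.0526 for *Gbp6*, from 2.19e-20 to 0.0588 for *Gbp9*, from 1.41e-27 to 0.0472 for *Gbp7*, from 2.05e-28 to 0.0316 for *Irgm1*, from 1.54e-27 to 0.0356 for *Irgm2* and from 5.89e-13 to 0.0374 for *Igtp*. For 10 of 10 genes every TNFα library lay above every vehicle library of its genotype, control vehicle replicate 4 included. The share of all genes that separate in this way was not counted, so that this too is a description. The median log2 fold change of the 10 genes was 4.15 in control cells (0.04 for all genes), 7.46 without control vehicle replicate 4 (0.04) and 7.04 in mutant cells (0.03). With *Gbp4* at its counting bound in control cells, the median without that library was 7.07.

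*Gbp2*, a prenylated GBP that is recruited to the vacuoles of intracellular parasites, was the most abundant of the 10 genes with TNFα, per kb of exon. It was at 3.81, 5.10, 5.41 and 141 CPM in control vehicle and at 5.51, 6.62, 6.59 and 6.88 CPM in mutant vehicle libraries. With TNFα it was at 817, 820.1, 869.7 and 701 CPM in control and at 965, 961, 988 and 947 CPM in mutant libraries. The vehicle libraries were low except for control vehicle replicate 4, and all TNFα libraries were high. *Gbp2* rose in control cells by 4.35 ± 1.40 on the log2 scale (adjusted p 0.0461) and by 7.41 ± 0.12 without control vehicle replicate 4, 170.1-fold. In mutant cells it rose by 7.22 ± 0.08, 149-fold (adjusted p 2.48e-29). With all 8 libraries the call of *Gbp2* in control cells was close to the threshold, and when any library other than control vehicle replicate 4 was left out its adjusted p was 0.0763 to 0.0921 (range over all alternatives 8.14e-29 to 0.0921). It was 0.0652 with a minimum of 1 count.

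*Gbp5* acts in the assembly of the NLRP3 inflammasome and was close to undetected in vehicle. Its counts were 0, 0, 1 and 872 in control vehicle and 0, 2, 1 and 2 in mutant vehicle libraries. With TNFα it was at 292, 321, 322 and 266 CPM in control and at 335, 345, 367 and 352 CPM in mutant libraries. All reads of *Gbp5* in control vehicle but 1 came from replicate 4. Over the other 3 control vehicle libraries the ratio of TNFα to vehicle was 14028 from 1 vehicle count (95% counting interval 2517 to 554107), and in mutant cells it was 6767 from 5 vehicle counts (2899 to 20845). The fitted change in control cells was 4.49 ± 1.53 with an adjusted p of 0.0563, not under the threshold, and 13.34 ± 0.19 with an adjusted p of 2.31e-18 without control vehicle replicate 4. It was called with filterByExpr (adjusted p 0.0484) and in the fit of all 16 libraries (0.00267). Over the alternatives that adjusted p ran from 2.3e-31 to 0.111. In mutant cells *Gbp5* rose by 12.55 ± 0.14 (adjusted p 2.48e-29). There, and in control cells without control vehicle replicate 4, *Gbp5* passed the count minimum through its TNFα libraries. Both fitted values are therefore a description.

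*Gbp3* and *Gbp7* lie between *Gbp5* and *Gbp2* and were also induced. *Gbp3* had means of 1.71 ± 0.643 CPM (SD, n = 3) in control vehicle without replicate 4, 2.07 ± 0.770 in mutant vehicle, 313 ± 30.3 in control TNFα and 325 ± 29.9 in mutant TNFα (SD, n = 4). It rose by 4.33 ± 1.25 in control cells (adjusted p 0.0316; 7.51 ± 0.18 without control vehicle replicate 4) and by 7.37 ± 0.16 in mutant cells. In control cells the call of *Gbp3* was lost when any library other than control vehicle replicate 4 was left out, with adjusted p values of 0.0554 to 0.0743 (range over all alternatives 1.58e-11 to 0.0743). *Gbp7*, which has been linked to the oxidative defence of phagocytes, was at 2.21, 1.83, 1.93 and 25.7 CPM in control vehicle and at 3.03, 1.9, 3.73 and 2.35 CPM in mutant vehicle libraries. With TNFα *Gbp7* was at 136, 139, 122 and 114 CPM in control and at 110.4, 118, 121 and 109 CPM in mutant libraries. Again control vehicle replicate 4 was intermediate, and no vehicle library reached a TNFα library. *Gbp7* rose by 3.97 ± 0.83 in control cells (adjusted p 0.00856), by 5.99 ± 0.11 or 63.4-fold without that library, and by 5.43 ± 0.12 or 43.0-fold in mutant cells (adjusted p 7.77e-21).

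The GBPs of chromosome 5 were the least abundant of the 10 with TNFα. *Gbp6* was at 0.387, 0.0761, 0.257 and 9.58 CPM in control vehicle and at 0.138, 0.103, 0.311 and 0.207 CPM in mutant vehicle libraries. With TNFα *Gbp6* was at 57.4, 71.4, 68.8 and 52.5 CPM in control and at 50.0, 53.9, 53.5 and 39.7 CPM in mutant libraries. The TNFα libraries again all lay above the vehicle libraries. *Gbp6* rose by 4.54 ± 0.81 in control cells (adjusted p 0.00423; 7.89 ± 0.25 without control vehicle replicate 4) and by 7.96 ± 0.17 in mutant cells (adjusted p 1.35e-23). *Gbp9* had 3 counts over the other 3 control vehicle libraries and 28 over the 4 mutant vehicle libraries. Its ratio of TNFα to vehicle was 434 (148 to 2108) in control cells without replicate 4 and 123 (84.6 to 185) in mutant cells. Its fitted change was 4.39 ± 0.80 in control cells (adjusted p 0.00467; 8.61 ± 0.28 without control vehicle replicate 4) and 6.86 ± 0.21 in mutant cells.

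*Gbp4* was the scarcest of the 10 genes with TNFα, so its counts are given. They were 0, 0, 0 and 28 in control vehicle and 0, 0, 0 and 1 in mutant vehicle libraries, and with TNFα 85, 160, 132 and 79 in control and 86, 102, 116 and 22 in mutant libraries. Apart from control vehicle replicate 4, the vehicle libraries held 1 count of *Gbp4* in all. Against a floor of 3 counts over the 3 other control vehicle libraries, *Gbp4* was at least 106-fold higher with TNFα, and in mutant cells the ratio was 596 from 1 vehicle count (106 to 23606). Its fitted change was 3.94 ± 0.89 in control cells (adjusted p 0.0119; 9.80 ± 0.78 without control vehicle replicate 4) and 8.50 ± 0.41 in mutant cells (adjusted p 6.46e-16). DESeq2 did not call *Gbp4* in control cells (adjusted p 0.0738; range over all alternatives 1.66e-14 to 0.106). Fitted changes of genes with so few vehicle counts depend on the prior count of the model and are no bounds. In mutant cells *Gbp4* passed the count minimum through its TNFα libraries. The same holds for *Gbp4* and *Gbp9* in control cells without control vehicle replicate 4, so these fitted values are a description.

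Of the IRGM genes, *Irgm1* and *Irgm2* had the smallest fold changes with TNFα of all 10 genes. *Irgm1*, which also acts in autophagy and in the survival of stem and immune cells, was at 15.5, 15.3, 14.6 and 62.1 CPM in control vehicle and at 15.4, 15.0, 17.8 and 13.7 CPM in mutant vehicle libraries. With TNFα *Irgm1* was at 209, 220.0, 217 and 181 CPM in control and at 189, 190.3, 189.7 and 178 CPM in mutant libraries. Its vehicle libraries were close together apart from control vehicle replicate 4. *Irgm1* rose by 2.93 ± 0.56 in control cells (adjusted p 0.00581), by 3.77 ± 0.08 or 13.7-fold without that library, and by 3.61 ± 0.08 or 12.2-fold in mutant cells (adjusted p 1.18e-23).

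*Irgm2*, whose product sits at the Golgi, was at 9.51, 9.21, 9.39 and 57.0 CPM in control vehicle and at 10.3, 7.70, 12.8 and 7.52 CPM in mutant vehicle libraries. With TNFα *Irgm2* was at 232, 274, 269 and 211 CPM in control and at 231, 236, 223 and 199 CPM in mutant libraries. Vehicle and TNFα libraries were far apart, with control vehicle replicate 4 between them. *Irgm2* rose by 3.52 ± 0.73 in control cells (adjusted p 0.00794), by 4.72 ± 0.11 or 26.4-fold without that library, and by 4.58 ± 0.15 or 23.9-fold in mutant cells (adjusted p 8.03e-10). *Igtp*, also called Irgm3, whose product sits on the endoplasmic reticulum, had means of 2.70 ± 0.912 CPM (SD, n = 3) in control vehicle without replicate 4, 2.84 ± 0.518 in mutant vehicle, 117 ± 12.4 in control TNFα and 112 ± 2.01 in mutant TNFα (SD, n = 4). It rose by 3.91 ± 0.71 in control cells (adjusted p 0.00436), by 5.39 ± 0.17 or 42.0-fold without control vehicle replicate 4, and by 5.32 ± 0.10 or 40.0-fold in mutant cells (adjusted p 3.14e-25).

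**Figure D2:**
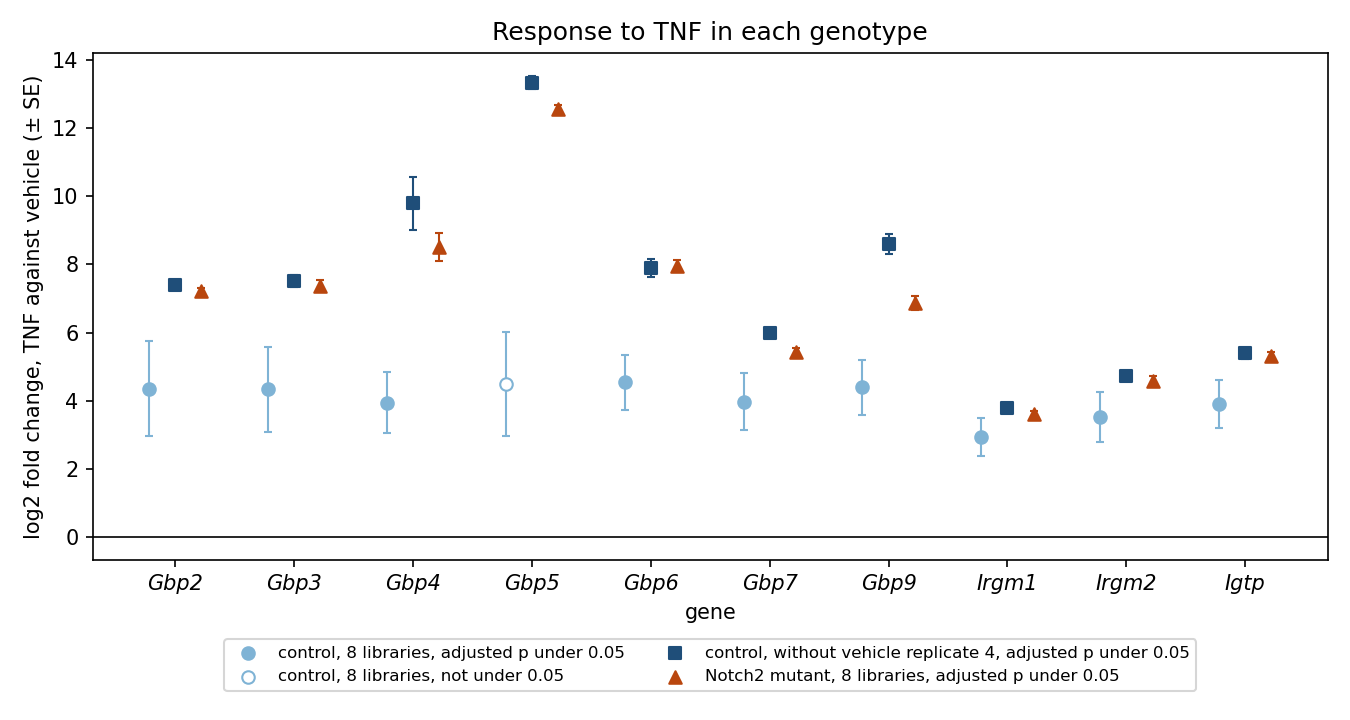
Log2 fold change with its standard error for TNFα against vehicle in control cells with 8 libraries, in control cells without vehicle replicate 4, and in *Notch2* mutant cells, for the 10 genes, with open symbols where the adjusted p is not under 0.05. All values are above 0, and the open symbol is *Gbp5* in control cells with 8 libraries (4.49).

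Taken as a sum, the 10 genes made up 37.1, 35.4, 35.5 and 432 CPM in control vehicle and 40.0, 35.2, 47.8 and 35.4 CPM in mutant vehicle libraries. With TNFα they made up 2189, 2343, 2373 and 1936 CPM in control and 2359, 2402, 2446 and 2247 CPM in mutant libraries. Levels per kb of exon put the genes in an order. In control cells with TNFα it was *Gbp2* (313 ± 27.9 CPM per kb; SD, n = 4), *Gbp3* (73.7 ± 7.12), *Irgm2* (65.9 ± 8.03), *Gbp5* (41.2 ± 3.66), *Irgm1* (32.5 ± 2.80), *Igtp* (25.6 ± 2.72), *Gbp7* (21.3 ± 1.99), *Gbp6* (9.21 ± 1.33), *Gbp9* (2.89 ± 0.284) and *Gbp4* (0.704 ± 0.205). The ranges of single libraries overlapped for *Gbp3* and *Irgm2*, *Irgm1* and *Igtp*, and *Igtp* and *Gbp7*, and for no other neighbours. The order was the same in mutant cells with TNFα, from 377 ± 6.60 CPM per kb for *Gbp2* and 76.4 ± 7.05 for *Gbp3* to 0.632 ± 0.0480 for *Gbp4*, and there no neighbours overlapped. Per kb of the longest transcript, *Gbp5* took the second place in both genotypes (79.9 CPM per kb in control and 93.1 in mutant cells), ahead of *Gbp3* (76.6 and 79.4).

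Genes listed as other interferon-inducible GTPases were also higher with TNFα. *Irgq*, the most abundant of the list, moved little, with means of 56.6 CPM in control vehicle and 70.8 CPM in control TNFα. In mutant cells its means were 55.6 CPM with vehicle and 82.0 CPM with TNFα. Of 14 listed, 12 could be tested and 12 of 12 were higher with TNFα in each genotype. Apart from control vehicle replicate 4, 7 of the 12 in control cells and 3 in mutant cells had 0 counts in vehicle. These passed the count minimum through their TNFα libraries, so that the count of 12 is a description. The median log2 fold change of the 12 was 4.44 in control cells, 8.24 without control vehicle replicate 4 (6.93 with 7 genes at their counting bound) and 6.82 in mutant cells (6.78 with 3 at their bound). *Mx1*, the antiviral dynamin-like GTPase, had 0 counts in the other 3 control vehicle and in the mutant vehicle libraries, and was at least 728-fold higher with TNFα in control and at least 1323-fold higher in mutant cells. *Gbp10* was at least 80.3-fold and at least 131-fold higher, and 63.4% of its windows are shared, mainly with *Gbp6*. *Gbp8* was at least 36.9-fold higher in control cells and 238-fold (41.9 to 9456) in mutant cells. *Tgtp2* was at least 172-fold and at least 386-fold higher, and 81.4% of its windows are shared with *Tgtp1*. *Gm12250*, a further IRG, was at least 305-fold higher in control cells and 361-fold (165 to 986) in mutant cells. All these bounds and ratios in control cells leave out control vehicle replicate 4, and with it the fitted changes were 5.16 ± 0.82 for *Mx1*, 4.97 ± 0.56 for *Gbp10*, 5.94 ± 0.58 for *Gbp8* and 4.73 ± 0.74 for *Tgtp2*. The 2 genes not tested, *Irgc* and *Gbp2b*, had at most 3 counts in any group.

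The 3 interferon genes looked at were at or near 0. *Ifng* and *Ifna4* had 0 counts in all 16 libraries. *Ifnb1* had 0, 0, 0 and 1 counts in control vehicle, 0, 0, 0 and 0 in mutant vehicle, 2, 2, 3 and 7 in control TNFα and 3, 0, 3 and 0 in mutant TNFα libraries. Against the floor of 3 counts, the ratio of TNFα to vehicle for *Ifnb1* was at least 3.25 in control cells without replicate 4, from 14 counts. In mutant cells it was at least 3.66 from 6 counts. There TNFα replicates 2 and 4 had 0 counts, as vehicle had, and a change was not tested. The fitted change of *Ifnb1* in control cells was 3.20 ± 1.10 (adjusted p 0.0209), and it was not under the threshold without control vehicle replicate 1 (2.84, adjusted p 0.0585) or replicate 3 (2.91, adjusted p 0.0518), with an adjusted p over all alternatives of 0.0127 to 0.0585. It passed the count minimum through its TNFα libraries, so these values are a description. In mutant cells none of the 3 ligands had enough counts to be tested.

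The receptors for these ligands were all higher with TNFα, 4 of 4 in each genotype (medians 1.10 in control and 1.40 in mutant cells). *Ifngr1* rose by 1.20 in control and 1.39 in mutant cells, and *Ifngr2* by 1.88 and 1.89. *Ifnar1* rose by 0.58 and 0.71, and *Ifnar2* by 0.99 and 1.41. Of the 3 receptor kinases, *Jak2* rose by 1.00 in control and 1.5 in mutant cells, and *Tyk2* by 2.19 and 2.18. *Jak1* fell by 0.21 in control and by 0.23 in mutant cells (list medians 1.00 and 1.5).

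Of 8 transcription factors, 7 were higher with TNFα in each genotype (medians 3.02 in control cells, 3.70 without control vehicle replicate 4, and 3.66 in mutant cells). *Irf1*, a direct activator of many GBP genes, was at 18.1, 15.1, 18.6 and 59.9 CPM in control vehicle and at 19.8, 18.2, 16.2 and 16.3 CPM in mutant vehicle libraries. With TNFα *Irf1* was at 272, 285, 298 and 235 CPM in control and at 323, 297, 298 and 334 CPM in mutant libraries. It showed the same picture as the GBPs, with control vehicle replicate 4 above the other vehicle libraries and below the TNFα libraries. *Irf1* rose by 3.28 ± 0.51 in control cells (adjusted p 0.00222), by 3.98 ± 0.10 without that library, and by 4.16 ± 0.08 in mutant cells.

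The other factors of this list that were called most strongly are themselves interferon-inducible. *Irf7* rose by 3.73 ± 0.83 in control cells (5.42 ± 0.21 without control vehicle replicate 4) and by 5.22 ± 0.13 in mutant cells. In control cells its call was lost with the replicate number as a block (adjusted p 0.0523; range 5.14e-18 to 0.0523). *Nlrc5*, the activator of class I antigen presentation genes, rose by 3.60 ± 0.48 (4.48 ± 0.15 without that library) and by 4.41 ± 0.10. *Batf2* rose by 3.62 ± 0.47 (4.69 ± 0.52 without that library) and by 4.44 ± 0.48. *Irf8*, which is restricted mostly to blood cells, was the factor not called. It was at 0.276, 0.381, 1.22 and 0.536 CPM in control vehicle, 1.72, 1.03, 1.40 and 0.736 in mutant vehicle, 0.788, 0.329, 0.758 and 0.523 in control TNFα and 0.728, 1.23, 1.64 and 1.38 in mutant TNFα libraries. These groups overlapped, and the change with TNFα was -0.03 ± 0.47 in control (adjusted p 0.971) and 0.09 ± 0.33 in mutant cells (adjusted p 0.864).

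Inhibitors of interferon signalling moved in both directions, 2 of 4 higher and 1 lower in control cells and 2 higher and 2 lower in mutant cells (medians 0.56 and 0.73). *Usp18*, which blocks the type I interferon receptor, rose by 3.69 in control cells (5.49 without control vehicle replicate 4) and 4.96 in mutant cells. In control cells the call of *Usp18* was lost with the replicate number as a block (adjusted p 0.0535; range 5.23e-25 to 0.0535). *Socs1*, the inhibitor of Janus kinases, rose by 1.25 and 1.67. *Socs3* fell by 1.40 in control and by 1.18 in mutant cells. *Pias1* fell by 0.21 in mutant cells (adjusted p 0.0222), a call that was lost without mutant vehicle replicate 2 (-0.20, adjusted p 0.0545), mutant vehicle replicate 4 (-0.18, 0.0913), mutant TNFα replicate 1 (-0.20, 0.0603) or mutant TNFα replicate 2 (-0.20, 0.0647). Its adjusted p over the alternatives ran from 0.00211 to 0.0913.

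The enzymes that attach a prenyl anchor, or process the end of a protein that carries one, had small changes. Of 5, 2 were higher and 2 lower in control cells, and 2 higher and 1 lower in mutant cells (medians 0.13 and 0.09). Over all genes tested, 4505 were higher and 4037 lower of 19338 in control cells, and 4442 higher and 4303 lower of 19633 in mutant cells. *Pggt1b*, the geranylgeranyl transferase subunit, rose by 0.22 in control and 0.31 in mutant cells. In control cells it was not under the threshold without vehicle replicate 1 (0.17, adjusted p 0.0841), TNFα replicate 1 (0.19, 0.0502) or TNFα replicate 4 (0.17, 0.0523), and over the alternatives its adjusted p was 0.00245 to 0.0841. *Icmt* rose by 0.22 and 0.20. *Fnta* fell by 0.32 and 0.30, and *Fntb* fell by 0.29 in control cells.

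Genes of autophagy conjugation, whose products guide GBPs and IRGs to their target membranes, were higher for 3 of 10 and lower for 3 in each genotype, near the shares over all genes (medians -0.08 and -0.07). *Gabarapl1* rose by 1.27 in control and 1.47 in mutant cells, *Map1lc3b* by 0.50 and 0.56, and *Atg12* by 0.28 and 0.27. *Atg3* fell by 0.66 and 0.70.

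Inflammasome genes, which act downstream of GBPs in the sensing of bacteria, were higher for 8 of 8 in control and 7 of 8 in mutant cells (medians 2.72 in control cells, 3.09 without control vehicle replicate 4, and 2.88 in mutant cells). These counts include *Il1b*, which passed the count minimum through its TNFα libraries. In control cells *Aim2* did so as well, with 20 counts with TNFα. It had 2 counts in vehicle without replicate 4, and 0.0595 CPM in that library. The list counts are therefore a description. *Casp4*, the sensor of cytosolic lipopolysaccharide, rose by 3.89 in control cells (5.67 without control vehicle replicate 4) and 5.27 in mutant cells. *Gsdmd*, which forms the pores of pyroptosis, rose by 2.97 (3.60 without that library) and 3.38, and *Nlrp3* by 3.33 (3.98) and 4.33. *Il1b* rose by 3.37 in control cells (adjusted p 0.0269) and 6.61 in mutant cells, from 17 and 33 counts over all libraries of the comparison; against 0 vehicle counts it was at least 20.1-fold higher in mutant cells and, without control vehicle replicate 4, at least 3.71-fold higher in control cells. In control cells *Il1b* was not under the threshold without vehicle replicate 1 (3.02, adjusted p 0.0754), replicate 2 (3.15, 0.0635) or replicate 3 (3.09, 0.0639), or with the replicate number as a block (3.21, 0.0557), with a range over alternatives of 0.012 to 0.0754. *Aim2* was the gene not called in mutant cells (0.80, adjusted p 0.29).

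The response list for TNF and NF-κB was higher for 8 of 8 genes in both genotypes (medians 3.57 in control cells, 4.46 without control vehicle replicate 4, and 4.57 in mutant cells). The chemokine gene *Ccl2* rose by 4.39 in control cells (6.41 without that library) and 6.17 in mutant cells. *Icam1* rose by 4.23 (6.10) and 6.07, *Cxcl1* by 3.95 (5.78) and 6.15, and *Tnfaip3*, an inhibitor of NF-κB, by 3.77 (4.87) and 5.18.

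Marker lists moved with TNFα as well. Chondrocyte markers were lower for 9 of 10 in each genotype (medians -0.51 in control and -0.77 in mutant cells). Macrophage markers were higher for 4 (3 without control vehicle replicate 4) and lower for 1 of 11 tested in control cells, and higher for 8 and lower for 1 of 12 in mutant cells. Fibroblast markers were higher for 3 and lower for 1 of 6 in control cells, and higher for 2 and lower for 1 in mutant cells. Endothelial markers were higher for 1 of 5 in control cells and for 0 in mutant cells by edgeR (1 at an unadjusted p under 0.05, 0 by DESeq2). Skeletal muscle markers were lower for 3 of 5 in control cells (2 without control vehicle replicate 4) and 2 of 5 in mutant cells. Of the T and NK cell markers only *Cd4* had enough counts, with changes of -0.06 in control (adjusted p 0.967) and 0.71 in mutant cells (adjusted p 0.40). The part of these changes in the rise of the GBPs and IRGs was not tested. *Notch2* rose by 0.55 ± 0.07 in mutant cells and was at 0.27 ± 0.17 in control cells (adjusted p 0.279), where 1 alternative called it, the replicate number as a block (0.26, adjusted p 0.0192; range over all alternatives 0.0192 to 0.503).

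The comparison of genotypes with vehicle asked whether *Notch2* mutant cells carry more GBP or IRG transcripts before TNFα. None of the 10 genes was called by edgeR (0 of 10), where 10.5% of all genes tested were, with 2 of 10 at an unadjusted p under 0.05. Over all genes tested 4226 of 19432 were at such a p. DESeq2 called 0 of the 1 gene to which it gave an adjusted p. Without control vehicle replicate 4, 8 of the 10 had enough counts and 0 of 8 were called, where 10.4% of all genes were. Again 2 were at an unadjusted p under 0.05, against 4079 of 19089 over all genes tested. The sign of the difference turned with that library. With it all 10 values were below 0 (median -2.41; all genes -0.0020), and without it the median was 0.13 (all genes -0.0029).

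*Gbp2* was the gene whose vehicle groups separated once that library was left out, the 4 mutant libraries (5.51 to 6.88 CPM) lying above the other 3 control libraries (3.81 to 5.41 CPM). The difference was 0.45 ± 0.15 without control vehicle replicate 4 (adjusted p 0.0593) and -2.60 ± 1.39 with it (adjusted p 0.364), and over the alternatives the adjusted p was 0.0593 to 0.747. *Gbp7* differed by -1.55 ± 1.05 with that library and by 0.43 ± 0.24 without it. *Gbp3* differed by -2.93 ± 1.49 and 0.23 ± 0.32, and *Gbp9* by -2.22 ± 1.57 and 1.97 ± 0.93. *Gbp6* was below 0 in both cases, at -3.71 ± 1.68 and -0.36 ± 0.69. *Irgm1* differed by -0.81 ± 0.57 and 0.02 ± 0.10, *Irgm2* by -1.18 ± 0.75 and -0.00 ± 0.17, and *Igtp* by -1.43 ± 0.88 and 0.02 ± 0.22. *Gbp5* at -7.83 ± 3.19 and *Gbp4* at -4.75 ± 2.04 rested on the counts of control vehicle replicate 4 alone, and without it they had too few counts to be tested. With that library *Gbp4* was called lower with a minimum of 1 count (adjusted p 0.000332) and with the replicate number as a block (adjusted p 0.0127), the range over the alternatives being 0.000332 to 0.556.

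In the fit with all 8 vehicle libraries, control vehicle replicate 4 included, few pathway genes were called between genotypes. That library lay above the other 7 vehicle libraries for 8 of 8 TNF and NF-κB genes and 7 of 8 transcription factors. It did so for 10 of 13 other GTPases and 5 of 8 inflammasome genes. Counts without it are not given for these lists. None of 10 other GTPases tested, 4 receptors, 8 transcription factors, 4 inhibitors, 5 prenylation enzymes, 7 inflammasome genes tested and 8 TNF and NF-κB genes was called by edgeR. At an unadjusted p under 0.05 there were 1 other GTPase, 1 transcription factor, 1 prenylation enzyme and 1 inflammasome gene, and 0 receptors, inhibitors and TNF and NF-κB genes, and DESeq2 called 0 of these lists among the genes to which it gave an adjusted p. *Jak1* was higher by 0.35 (1 of 3 kinases). *Gabarapl1* was lower by -0.47 and *Map1lc3b* by -0.21 (2 of 10 autophagy genes). *Irf1* differed by -0.67 ± 0.50 (adjusted p 0.532; 0.01 ± 0.10 without control vehicle replicate 4). *Irf8* differed by 0.96 ± 0.41 (adjusted p 0.161) and was called without control vehicle replicate 3 (1.56, adjusted p 0.0225; range over alternatives 0.0225 to 0.376).

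Several marker lists held genes called between genotypes with vehicle. Macrophage markers were higher in mutant cells for 8 of 12 and chondrocyte markers lower for 10 of 10 (medians 0.99 and -0.66). Endothelial markers were higher for 3 of 5 and skeletal muscle markers for 3 of 5. Fibroblast markers were higher for 3 and lower for 1 of 6. Their part in the GBP and IRG values was not tested.

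With TNFα, *Notch2* mutant cells carried more *Gbp2* and *Gbp5* than control cells. The count was 2 of 10 higher, where 5.63% of all genes tested were, and the differences were small beside the TNFα response. Without control TNFα replicate 4, the lowest library of its group for every one of the 10 genes, 1 of 10 was higher (*Gbp2*), where 5.86% of all genes were, and 4 of 10 were lower (*Gbp6*, *Gbp7*, *Irgm1* and *Irgm2*), where 5.18% were. Since leaving out the lowest control library raises the control mean of each gene by itself, the calls without it are given as a description, and nothing is read from them. The median of the 10 genes was -0.09 with all libraries (all genes -0.01) and -0.16 without that library (all genes -0.02).

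All 4 mutant TNFα libraries of *Gbp2* lay above all 4 control TNFα libraries, at 965 ± 16.9 against 802 ± 71.4 CPM (SD, n = 4). *Gbp2* was higher by 0.28 ± 0.06 or 1.22-fold (adjusted p 0.00365), and by 0.21 ± 0.06 without control TNFα replicate 4 (adjusted p 0.0122). Over the alternatives its adjusted p ran from 0.00026 to 0.909, and the call was ended by a fit of all 16 libraries together (0.27 ± 0.81, adjusted p 0.909) and by requiring a log2 fold change of at least 1. *Gbp5* separated in the same way, at 349.9 ± 13.2 against 300.1 ± 26.7 CPM (SD, n = 4). *Gbp5* was higher by 0.23 ± 0.07 or 1.18-fold (adjusted p 0.0186). This call was less secure, since it was lost without control TNFα replicate 1 (0.22, adjusted p 0.0655), control TNFα replicate 4 (0.16, 0.0767), mutant TNFα replicate 2 (0.23, 0.0582) or mutant TNFα replicate 3 (0.20, 0.0981), in the fit of all 16 libraries (0.22 ± 0.82, 0.928), and with the same required fold change. The range of its adjusted p over the alternatives was 0.00509 to 0.928.

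*Gbp6*, *Gbp7*, *Irgm1* and *Irgm2* had values in the opposite direction, as had *Gbp4* and *Igtp*, which are given further below. *Gbp6* differed by -0.30 ± 0.10 (adjusted p 0.0584) and by -0.39 ± 0.08 without control TNFα replicate 4 (adjusted p 0.00144). It was also called without control TNFα replicate 1 (-0.34, adjusted p 0.0489) and by DESeq2 (-0.31, adjusted p 0.0307). Further calls came with a minimum of 1 count (-0.30, adjusted p 0.000614) and with the replicate number as a block (-0.33, adjusted p 0.00249). The adjusted p of *Gbp6* over the alternatives was 0.000614 to 0.761. *Gbp7* differed by -0.14 ± 0.07 (adjusted p 0.23) and by -0.21 ± 0.06 without that library (adjusted p 0.0316; range 0.0316 to 0.912). *Irgm1* differed by -0.13 ± 0.06 (adjusted p 0.232) and by -0.21 ± 0.06 without it (adjusted p 0.0148; range 0.0148 to 0.882). The values of *Irgm2* were -0.13 ± 0.07 (adjusted p 0.318) and -0.21 ± 0.06 (adjusted p 0.0293; range 0.0293 to 0.911).

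The remaining genes were not called with all libraries or without control TNFα replicate 4. *Gbp9* differed by 0.31 ± 0.11 (adjusted p 0.0931) and was called without control TNFα replicate 2 (0.36, adjusted p 0.0459) or mutant TNFα replicate 4 (0.39, adjusted p 0.00216), or with a minimum of 1 count (adjusted p 0.0048), the range over the alternatives being 0.00216 to 0.765. *Gbp3* differed by 0.07 ± 0.07 (adjusted p 0.631), *Igtp* by -0.05 ± 0.07 (adjusted p 0.744) and *Gbp4* by -0.14 ± 0.18 (adjusted p 0.726). At an unadjusted p under 0.05 there were 6 of the 10 genes, against 4116 of 19227 over all genes tested.

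**Figure D3:**
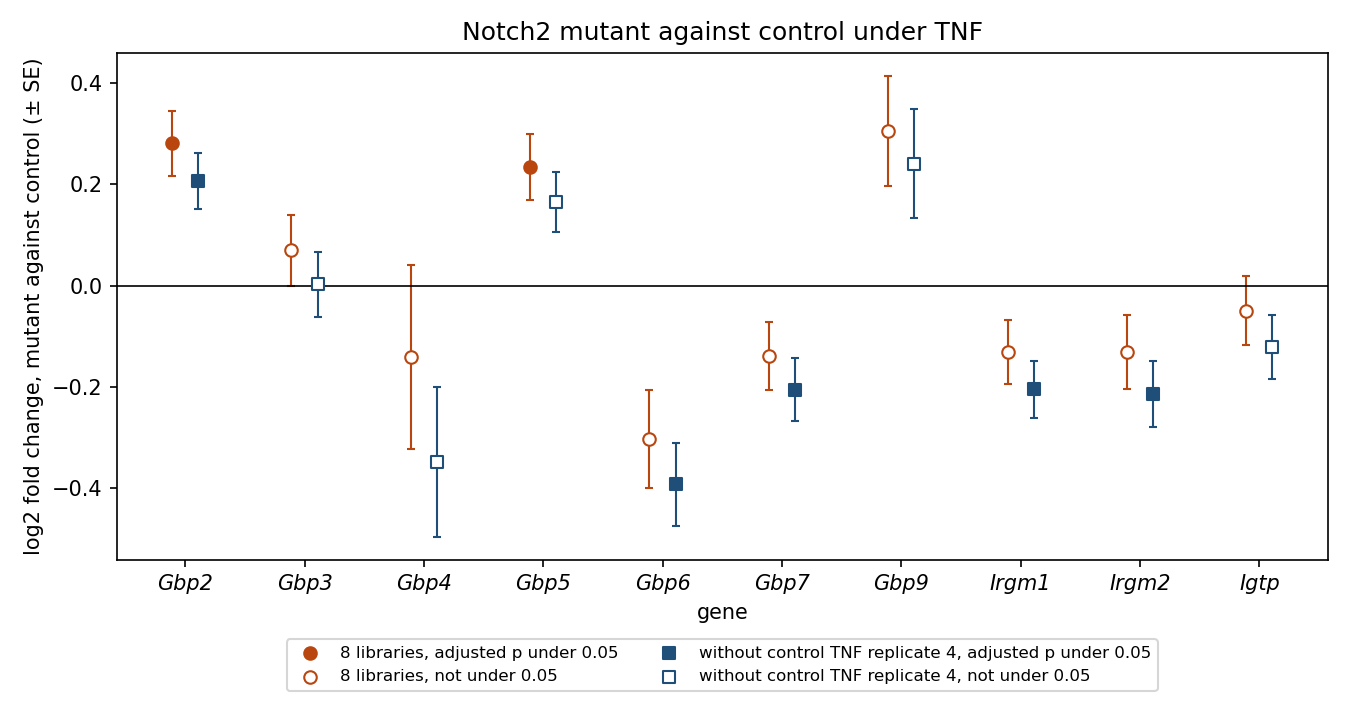
Log2 fold change with its standard error for *Notch2* mutant against control cells with TNFα, for the 10 genes, with 8 libraries and without control TNFα replicate 4, with open symbols where the adjusted p is not under 0.05. *Gbp2* (0.28) and *Gbp5* (0.23) are called with 8 libraries, and without that library *Gbp2* (0.21) is called above 0 and *Gbp6*, *Gbp7*, *Irgm1* and *Irgm2* below 0.

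Among the other GTPases 1 of 12 was higher in mutant cells with TNFα, *Irgq* (0.22 ± 0.06, adjusted p 0.0125), and 1 was lower, *Tgtp1* (-0.66 ± 0.18, adjusted p 0.0159), of which 78.7% of windows are shared with other genes. *Irgq* lost its call without control TNFα replicate 3 (0.20, adjusted p 0.0544) or mutant TNFα replicate 2 (0.21, 0.0573), and *Tgtp1* lost its call without control TNFα replicate 2 (-0.57, 0.0602), control TNFα replicate 3 (-0.64, 0.0503) or mutant TNFα replicate 3 (-0.64, 0.0759), or in the fit of all 16 libraries (-0.68, 0.446). The adjusted p ran from 0.0051 to 0.0573 for *Irgq* and from 0.000399 to 0.446 for *Tgtp1*. Of the ligands, *Ifnb1* had a value of -0.83 (adjusted p 0.64). *Ifngr1* was higher by 0.32 and *Ifnar2* by 0.41 (2 of 4 receptors). *Ifnar2* was not under the threshold without control TNFα replicate 1 (0.40, adjusted p 0.0583), replicate 3 (0.43, 0.0516) or replicate 4 (0.35, 0.0909), or without mutant TNFα replicate 1 (0.42, 0.067), and its range was 2.94e-07 to 0.0909.

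*Jak2* was higher in mutant cells with TNFα, at 112, 107, 106 and 108 CPM against 78.8, 82.7, 83.7 and 81.3 CPM in control libraries. With vehicle *Jak2* was at 35.1, 41.5, 38.4 and 37.6 CPM in mutant and at 40.2, 38.2, 36.9 and 48.2 CPM in control libraries. The genotypes separated with TNFα and overlapped with vehicle. *Jak2* differed by 0.42 ± 0.06 with TNFα (adjusted p 8.96e-06) and *Jak1* by 0.34 (2 of 3 kinases). Of 8 transcription factors 1 was higher, *Irf2* (0.22 ± 0.07, adjusted p 0.0339), and its call was lost when any library other than mutant TNFα replicate 4 was left out (0.17 to 0.22, adjusted p 0.0602 to 0.172), with the replicate number as a block (0.0913) and in the fit of all 16 libraries (0.133; range over all alternatives 0.0197 to 0.172). *Irf1* differed by 0.21 ± 0.07 (adjusted p 0.0587). It was called without control TNFα replicate 3 (0.24, adjusted p 0.0471) and with a minimum of 1 count (0.21, adjusted p 0.0169; range 0.0169 to 0.806). *Irf8* differed by 1.06 ± 0.39 (adjusted p 0.0862) and was called without mutant TNFα replicate 1 (1.28, adjusted p 0.0475; range 0.0475 to 0.321).

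None of 4 inhibitors and 5 prenylation enzymes was called by edgeR or DESeq2 in this comparison, with 1 of each at an unadjusted p under 0.05. *Gabarapl1* was lower by -0.26 (1 of 10 autophagy genes). *Nlrp3* was higher by 1.17 ± 0.20 (adjusted p 0.000171) and *Casp1* by 1.02 ± 0.30 (adjusted p 0.0239), 2 of 8 inflammasome genes. *Casp1* was not under the threshold without control TNFα replicate 1 (0.89, adjusted p 0.0713), control TNFα replicate 3 (0.96, 0.0718) or mutant TNFα replicate 1 (0.86, 0.131), and its range was 0.0214 to 0.131. Of the 8 TNF and NF-κB genes *Tnfaip3* was higher by 0.39 ± 0.07 and *Icam1* was lower by -0.45 ± 0.07. Both calls were lost in the fit of all 16 libraries (0.38, adjusted p 0.604, and -0.47, adjusted p 0.78), and the adjusted p over the alternatives ran from 1.63e-07 to 0.604 for *Tnfaip3* and from 3.52e-11 to 0.78 for *Icam1*.

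Macrophage markers were higher in mutant cells with TNFα for 10 of 12, among them *Adgre1* (1.46), *Csf1r* (1.23) and *Lyz2* (0.92), and chondrocyte markers were lower for 10 of 10, among them *Col2a1* (-0.88) and *Sox9* (-0.89). Endothelial markers were higher for 3 of 5, skeletal muscle markers for 1 of 5, and fibroblast markers for 4 of 6 with 1 lower. *Cd4*, the T and NK cell marker tested, differed by 1.76 (adjusted p 0.192). Whether these markers have a part in the differences of *Gbp2*, *Gbp5* and the other GTPases was not tested.

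The interaction asked whether the response to TNFα differs between the genotypes. None of the 10 genes was called by edgeR (0 of 10), where 0.474% of all genes tested were, with 5 at an unadjusted p under 0.05. Over all genes tested 1856 of 21321 were at such a p. DESeq2 called 0 of the 2 genes to which it gave an adjusted p. Without both control replicates 4, 0 of 10 were called, where 0.63% of all genes were. At an unadjusted p under 0.05 there were 3, against 1756 of 20955 over all genes tested. The 10 values were all above 0 with all libraries (median 2.67) and all below 0 without both libraries (median -0.23). Without control vehicle replicate 4 alone 9 of 10 were below 0 (median -0.19), and without control TNFα replicate 4 alone all 10 were above 0 (median 2.61). The direction of these values therefore rested on control vehicle replicate 4.

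*Gbp2* had an interaction of 2.86 ± 1.28 with all libraries (adjusted p 0.554) and of -0.25 ± 0.12 without both (adjusted p 0.565; range 0.368 to 0.774). *Gbp5* had 8.04 ± 2.65 with all libraries (adjusted p 0.327) and -0.88 without both, and so its higher level in mutant cells with TNFα is not shown to differ from the vehicle comparison. Among genes with ample vehicle counts, the value farthest from 0 without both libraries was that of *Gbp7*, -0.61 ± 0.20 (adjusted p 0.256; range 0.256 to 0.817). *Irgm1* had 0.67 ± 0.54 (adjusted p 0.788) and -0.22 ± 0.10. *Irgm2* had 1.05 ± 0.70 and -0.20 ± 0.21, and *Igtp* 1.41 ± 0.76 and -0.12 ± 0.19. *Gbp3* had 3.03 ± 1.30 and -0.19 ± 0.36, *Gbp9* 2.47 ± 1.25 and -1.81 ± 0.90, and *Gbp4* 4.53 ± 1.93 and -1.62 ± 1.62. *Gbp6* had 3.42 ± 1.45 with all libraries, 0.04 ± 0.50 without control vehicle replicate 4 and -0.02 ± 2.81 without both.

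Of the pathway genes, *Jak2* was called in the interaction (0.51 ± 0.10, adjusted p 0.00542), with a larger rise in mutant cells, and it was called without both control replicates 4 as well (0.42 ± 0.09, adjusted p 0.0153; range 9.82e-05 to 0.0185). *Irf1* had 0.88 ± 0.48 (adjusted p 0.665), *Irf8* 0.11 (adjusted p 0.981) and *Notch2* 0.29 (adjusted p 0.721). With each library left out in turn, the value of *Irf1* ranged from 0.17 to 1.07. Over all lists of pathway genes and markers edgeR called 2 of 102 genes tested, *Jak2* and a chondrocyte marker that was lower, with 20 at an unadjusted p under 0.05, and DESeq2 called 4 of 82, 1 of 8 other interferon-inducible GTPases, 1 of 3 kinases, 1 of 10 chondrocyte markers and 1 of 6 fibroblast markers.

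The genes whose pattern over the 16 libraries was most like that of the 10, among 13421 genes compared, were *Ifih1*, *Gm12250*, *Slc2a6*, *H2-Q4* and *Rtp4*. Their Pearson correlation with the mean standardised level of the 10 was 0.999 for each, as a description only, since vehicle and TNFα libraries form separate clusters. *Ifih1*, a sensor of viral RNA, was at 36.2 CPM in control vehicle replicate 4, between a mean of 8.08 CPM in the other 3 control vehicle libraries and of 121 ± 12.0 CPM (SD, n = 4) in control TNFα. In mutant cells its means were 8.69 CPM with vehicle and 121 ± 5.13 CPM (SD, n = 4) with TNFα.

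Promoters were read because the genes moved together. RefSeq promoter sequences (GRCm38.p6) of 250 bases before the start were searched on both strands, and 7 of the 10 genes were in that table with 8 promoters, 2 of them of *Gbp3*. The others were *Gbp4*, *Gbp6* and *Gbp9*. The core of the interferon-stimulated response element, GAAANNGAAA, was in 2.98% of 32851 promoters and in 7 of these 8, 1 for each gene, and not in the other promoter of *Gbp3*. The NF-κB consensus was in 3.90% of promoters and in 1 of these 8 (*Gbp5*). No match overlapped one of another motif, and a match is a description of the letters and not a binding site. The element core stood 14 to 155 bases before the start, on the strand opposite to the gene in the GBPs and on the same strand in the IRGM genes. The stretches that hold it are shown to let the members be compared, each in the direction of its gene with the core in capitals, and in *Gbp3* and *Irgm1* with overlapping cores.
Gbp2: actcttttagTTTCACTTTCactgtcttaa
Gbp3: acagTTTCAGTTTCTATTTCccagatccct
Gbp5: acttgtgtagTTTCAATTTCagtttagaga
Gbp7: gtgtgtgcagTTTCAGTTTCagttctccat
Irgm1: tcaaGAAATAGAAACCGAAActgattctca
Irgm2: tccaggaactGAAACTGAAAgctgttcggg
Igtp: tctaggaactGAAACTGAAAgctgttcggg

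On GRCm39 each stretch had 1 exact match on its chromosome: chr3:142326355-142326384 for *Gbp2*, chr3:142265756-142265785 for *Gbp3*, chr3:142202520-142202549 for *Gbp5*, chr3:142236034-142236063 for *Gbp7*, chr11:48762252-48762281 on the minus strand for *Irgm1*, chr11:58105729-58105758 for *Irgm2* and chr11:58090338-58090367 for *Igtp*. The stretches of *Irgm2* and *Igtp*, neighbours on chromosome 11, differ in 1 of the bases shown. The stretches of *Gbp2*, *Gbp3*, *Irgm1* and *Igtp* lie within an exon of their gene in GENCODE M39, and those of *Gbp5*, *Gbp7* and *Irgm2* do not lie whole within one.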

How the data were processed

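Libraries were made with a stranded mRNA kit and sequenced as paired reads of 75 bases. The authors trimmed reads with Trimmomatic, mapped them with HISAT2 and counted them with htseq-count, and deposited raw counts per Ensembl gene, whole numbers for 55414 identifiers. The submitters' processing notes name HISAT2 2.1.0, SAMtools 1.9, Picard, HTSeq, DESeq2 and GRCm38, whereas the paper names GRCm39. Lines that name no gene (5 per file) held 8.81 to 12.1% of fragments and were left out. Names came from GENCODE M39 for 54749 identifiers; the others held 0.0182% of counts. The 10 members and the gene lists were chosen with earlier results of these data known, and 1 listed gene and 1 motif are not reported here.

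Counts were analysed in R 4.3.3 by edgeR 4.0.16 (with limma 3.58.1), using TMM normalisation, genes with at least 10 counts over the compared libraries, robust quasi-likelihood tests and Benjamini-Hochberg adjustment over all genes tested. Comparisons of 2 groups used their 8 libraries and the interaction all 16. Biological coefficients of variation were 9.98% (TNFα, control), 7.65% (TNFα, mutant), 9.69% (genotype, vehicle), 7.79% (genotype, TNFα) and 8.83% (interaction). No covariate was used, since the study names covariates without saying which. Tables, counting intervals and plots came from numpy 2.4.6, scipy 1.17.1, pandas 2.3.3 and matplotlib 3.10.9 under Python 3.11.15.

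Alternatives were DESeq2 1.42.0, RLE scaling, filterByExpr, a minimum of 1 count, a log2 fold change of at least 1, an adjusted p under 0.1, the replicate number as a block, a fit of all 16 libraries, each library left out in turn, both control replicates 4 left out, and the length of the longest transcript. Genes named are the members, *Irf1*, *Irf8*, *Notch2* and at most 4 called genes per list with the largest absolute change; *Aim2*, *Irgc*, *Gbp2b*, *Cd4* and the markers were named after their values were seen. Likeness was ranked on log2(CPM + 0.5) among genes with a mean of at least 1 CPM. The floor of 3 counts, taken over a group, and the exact 95% intervals of count ratios cover counting error only. The steps were tested on simulated data in which 200 genes per comparison had known changes.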

Additional observations from a re-analysis of the deposited data

Results flagged for a closer look

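Each gene was checked in each group of 4 libraries for a library far from the other 3 on the log2 CPM scale, by the gap to its nearest neighbour as a share of the range of the group. Of 40 groups, 8 held such a library, where chance gives about 1 in 20, or 2 groups. Control vehicle replicate 4 was the highest of its group with a gap of 0.905 of the range for *Gbp2*, 1.000 for *Gbp4*, 0.927 for *Gbp5*, 0.930 for *Gbp7*, 0.960 for *Irgm1* and 0.983 for *Irgm2*. For *Gbp4* the other 3 control vehicle libraries had 0 counts. *Notch2* mutant vehicle replicate 4 was the highest of its group for *Gbp4* with a gap of 1.000, from 1 count against 0 in the other 3 libraries, in the library with the most counts of all. *Notch2* mutant TNFα replicate 4, the library with the fewest counts, was the lowest of its group for *Irgm1* with a gap of 0.879.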

How the results depend on the processing

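The rise of all 10 genes with TNFα in mutant cells held under every alternative run, with 10 of 10 called in each. As *Gbp4* and *Gbp5* passed the count minimum there through their TNFα libraries, this count is a description. Results that did not hold are listed by setting, and the cause was not tested. RLE scaling changed no count of called members.

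In control cells TNFα raised 9 genes with all 8 libraries, 1 of the 2 genes with an adjusted p by DESeq2, 4 with the replicate block, and 7 to 10 when each library was left out in turn. With vehicle 0 genes differed between genotypes, against 1 (*Gbp4*, lower) with a minimum of 1 count and 1 (*Gbp4*, lower) with the replicate block, and 0 to 0 with each library left out. With TNFα 2 genes differed between genotypes, against 4 at an adjusted p under 0.1 (3 higher, 1 lower), 0 with the fold cutoff, 4 with a minimum of 1 count, 0 in the fit of all 16 libraries, and 1 (without mutant TNFα replicate 2 or 3) to 5 (without control TNFα replicate 4) with each library left out. The interaction gave 0 to 0 with each library left out.

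Without both control replicates 4 the interaction turned from above to below 0 for *Gbp2* (-0.25), *Gbp3* (-0.19), *Gbp4* (-1.62), *Gbp5* (-0.88), *Gbp6* (-0.0150), *Gbp7* (-0.61), *Gbp9* (-1.81), *Irgm1* (-0.22), *Irgm2* (-0.20) and *Igtp* (-0.12). With each library left out in turn the interaction ranged from -0.20 to 3.25 for *Gbp2*, -0.16 to 3.41 for *Gbp3*, -1.46 to 5.67 for *Gbp4*, -0.84 to 8.48 for *Gbp5*, -0.57 to 1.78 for *Gbp7*, -1.77 to 2.93 for *Gbp9*, -0.17 to 0.88 for *Irgm1*, -0.15 to 1.30 for *Irgm2*, -0.0808 to 1.70 for *Igtp* and -0.48 to 0.37 for *Irf8*.

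In the comparison of genotypes with vehicle, leaving out libraries gave -2.98 to 0.45 for *Gbp2*, -3.33 to 0.23 for *Gbp3*, -1.88 to 0.43 for *Gbp7*, -2.65 to 1.97 for *Gbp9*, -1.01 to 0.0178 for *Irgm1*, -1.74 to 0.0243 for *Igtp* and -0.87 to 0.0123 for *Irf1*. With TNFα it gave -0.35 to 0.0026 for *Gbp4* and -0.12 to 0.00083 for *Igtp*. The change of *Irf8* with TNFα ranged from -0.30 to 0.56 in control and from -0.16 to 0.30 in mutant cells.

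A pairing of the libraries by replicate number was not detected, which does not exclude one. Of 16 pairs of libraries with the same number 1 had a correlation over 0.1 (-0.178 to 0.120), and 2 libraries correlated best with their own number. With the replicate block *Irf8* was at 0.0542 with TNFα in control cells, -0.0310 in mutant cells and -0.0092 in the interaction. *Gbp6* was also called lower in mutant cells with TNFα (-0.33, adjusted p 0.00249).

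Over all genes the fold cutoff left 2279 of 8542 calls for TNFα in control cells, 2720 of 8745 in mutant cells, 244 of 2048 between genotypes with vehicle and 272 of 1912 with TNFα. The interaction gave 101 calls, against 174 by DESeq2, 266 with a minimum of 1 count and 51 to 156 with each library left out.

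Depth limits *Gbp4*, *Gbp5* and *Gbp9* in vehicle, where a few counts set the size of each ratio, and *Gbp6* is limited by sequence it shares with other genes.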
